A study of Mus musculus with 7 samples.

Results

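The genes described here are 10 antioxidant and detoxification genes of the NRF2 pathway, read in the livers of obese mice that were or were not gavaged with bitter melon juice. They were chosen by name, as the table entries of 10 Ensembl gene IDs, from 33426 IDs in all. The 4 livers of the BMJ + DIO group came from wild-type male C57BL/6J mice gavaged each day for 40 days with lyophilized juice of bitter melon, the fruit of Momordica charantia, at a dose of 200 mg for every kg of body weight. The 3 livers of the DIO group came from wild-type male mice of the same strain without the juice. DIO stands for diet-induced obesity: fat supplied 60% of the energy in the food of both groups, which they ate between the ages of 4 and 16 weeks and through those 40 days as well. The sources used here describe no gavage of the DIO mice and no lean mice, so the juice and the gavage cannot be told apart. The labels give an age of 16 weeks for every mouse, although the feeding runs 40 days beyond it.

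NRF2, encoded by Nfe2l2, is a transcription factor that KEAP1 binds and marks for degradation in unstressed cells. Oxidants and electrophiles modify KEAP1, NRF2 then accumulates, pairs with small MAF proteins and binds antioxidant response elements near its targets. In liver these targets make and recycle glutathione, keep thioredoxin and peroxiredoxins reduced and inactivate quinones and heme. NRF2 itself is controlled largely through its protein, so the mRNA of Nfe2l2 is only one part of its regulation.

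Of the 10 genes, Nqo1, Hmox1, Osgin1 and Gsr, 4 in all, lie on chromosome 8, with 2 on chromosome 2, 2 on chromosome 3 and 1 each on chromosomes 9 and 10 (GRCm38.p6). A table of RefSeq promoter sequences on that build (250 bases before to 50 after a start site) held 9 windows for 7 of them: Nqo1, Gclm, Txnrd1, Srxn1, Slc7a11, Osgin1 and Nfe2l2. Each window was searched on both strands for the core of the antioxidant response element, written TGACNNNGC, where N is any base. It was found in 4 of the 9 windows, those of Gclm, Srxn1, Nfe2l2 and one of Txnrd1, against 12.4% of all 32851 windows in the table. The same core with G in place of C, TGAGNNNGC, was searched as a second form after the first had been seen, and it was present in the windows of Srxn1, Slc7a11 and Osgin1 (17.6% of all windows). The AP-1 site TGANTCA, which can share bases with either form, was found for Srxn1 and Osgin1 (7.81% of all windows). These are matches of letters and not binding sites.

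The 5 stretches below show the matches in genes whose values are described next. Each is printed along its gene's strand, with every match in capitals (an element on the opposite strand reads as its reverse complement). The start is the start site of that promoter window. For Gclm, Txnrd1 and Osgin1 this site lies inside the gene span given further below, not at its beginning. For Srxn1 and Nfe2l2 it is the end of the span at which the gene begins.
Gclm, chr3:122245378-122245477, plus strand, an element whose last base lies 126 bases before the start: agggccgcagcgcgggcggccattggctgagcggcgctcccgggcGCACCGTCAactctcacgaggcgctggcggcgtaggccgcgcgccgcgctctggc
Txnrd1, chr10:82859069-82859168, plus strand, an element 84 bases before the start: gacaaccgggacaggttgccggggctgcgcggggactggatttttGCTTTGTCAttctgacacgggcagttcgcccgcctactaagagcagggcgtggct
Nfe2l2, chr2:75704814-75704913, minus strand, an element 232 bases before the start: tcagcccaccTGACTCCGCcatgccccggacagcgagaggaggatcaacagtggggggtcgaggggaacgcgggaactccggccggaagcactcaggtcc
Osgin1, chr8:119437003-119437102, plus strand, an element of the G form overlapping an AP-1 site, 91 bases before the start: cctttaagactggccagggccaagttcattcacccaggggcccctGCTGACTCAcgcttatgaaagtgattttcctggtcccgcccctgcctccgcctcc
Srxn1, chr2:152105274-152105573, plus strand, the whole window with its matches of all 3 motifs: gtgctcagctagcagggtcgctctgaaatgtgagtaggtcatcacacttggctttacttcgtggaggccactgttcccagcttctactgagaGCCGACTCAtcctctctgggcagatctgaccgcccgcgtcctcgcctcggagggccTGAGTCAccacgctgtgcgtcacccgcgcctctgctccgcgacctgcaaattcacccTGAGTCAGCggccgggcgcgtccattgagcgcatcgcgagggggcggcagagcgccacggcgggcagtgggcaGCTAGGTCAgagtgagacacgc
Srxn1 and Osgin1 share the element TGAGTCAGC, in which the AP-1 letters and the G form overlap. In Srxn1 it lies 37 bases before the start on the printed strand, and in Osgin1 it lies on the opposite strand.

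Each array gave 1 log2 value per ID, made by the authors with RMA, and differences are BMJ + DIO minus DIO on that scale. IDs in the lowest 40% by mean (mean log2 of 2.74 or less) were left out of the test, which kept 20055 IDs and 9 of the 10 genes. DIO replicate 3 stood apart: its mean correlation with the other arrays over the tested IDs was 0.924, against 0.964 to 0.969 for the other arrays. Its brighter IDs also read low, with a median deviation from the 7-array mean of -0.51 over the 1489 IDs with a mean of 7 or more and -0.39 over the 5135 IDs between 5 and 7. DIO replicate 1 read high in the same bands, at 0.19 and 0.14. Of the tested genes, 8 fall in these bands, and Nqo1, with a mean below 5, does not. Results are therefore also given without DIO replicate 3, without DIO replicate 1 and after cyclic loess, a normalization that evens out deviations following brightness, technical or real. Scan dates and cell type markers were not analysed here, and in bulk liver fewer cells of a type and less RNA per cell cannot be told apart.

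The mRNA of the 9 tested NRF2 pathway genes did not separate juice-gavaged from other obese livers on the deposited values. In limma's moderated test 0 of the 9 passed a Benjamini-Hochberg adjusted p of 0.05, where the share over all 20055 IDs was 0%, and the adjusted p-values ran from 0.577 to 0.960. At an unadjusted p under 0.05 there were again 0 of 9, against 6.41% of all tested IDs. The values of both groups overlapped for all 9, against 3.52% of IDs without overlap. The mean was higher in BMJ + DIO for 6 genes and lower for 3, where 56.3% of all tested IDs were higher. The median difference was 0.03 over the 9 genes and 0.02 over all tested IDs. For 6 of the 9 genes all 4 BMJ + DIO values lay inside the range of the DIO livers, against 28.9% of tested IDs. Without DIO replicate 3, 1 of the 9 genes (Srxn1) was under an unadjusted p of 0.05, against 3.25% of IDs, and without DIO replicate 1 there were 0 of 9, against 29.0% of IDs.

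**Figure D1:**
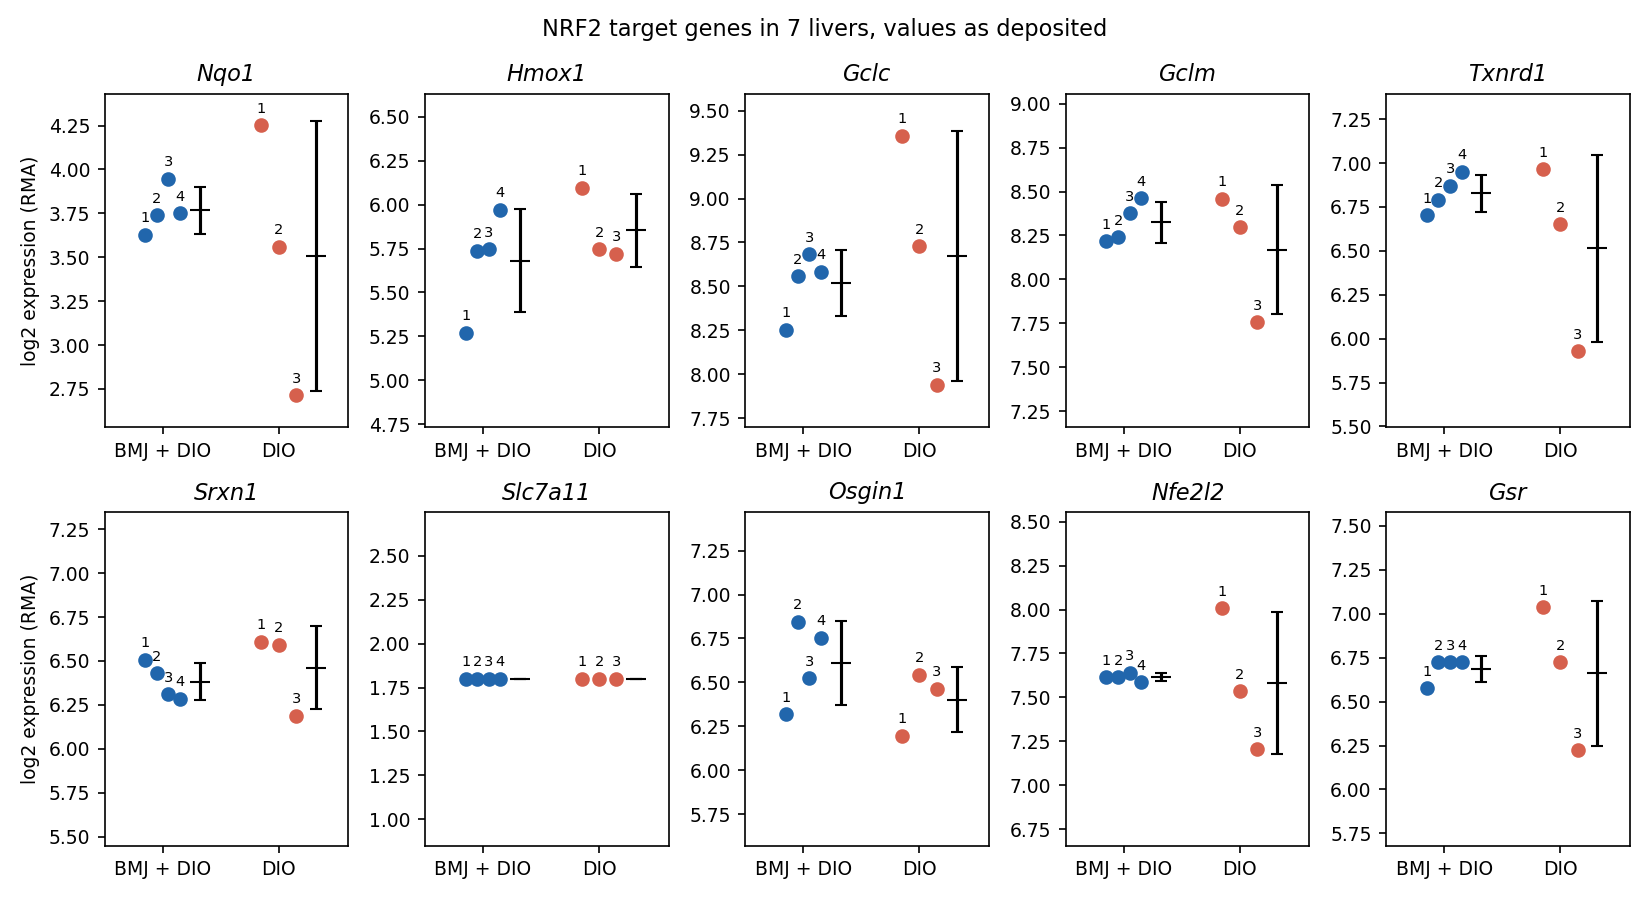
Log2 expression (RMA, y axis) of the 10 NRF2 pathway genes in each liver as deposited, with BMJ + DIO in blue and DIO in red, replicate numbers beside the points, and black bars for the mean ± SD (n = 4 and 3). Every panel spans the same number of log2 units, and in 6 of the 9 tested genes all 4 BMJ + DIO livers lie between DIO replicate 1 and DIO replicate 3.

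Nfe2l2 (ENSMUSG00000015839, chromosome 2, 75675513 to 75704663 in GRCm38.p6, as for the positions below) is the gene of NRF2 itself. It read 7.61, 7.61, 7.64 and 7.59 log2 units in BMJ + DIO livers, against 8.01, 7.54 and 7.20 in DIO livers. The treated livers spanned 0.055 units. DIO replicate 1 lay above all of them, and DIO replicates 2 and 3 lay below all of them. The means were 7.61 ± 0.02 (SD, n = 4) in BMJ + DIO and 7.58 ± 0.40 (SD, n = 3) in DIO. The difference was 0.03, with a 95% interval of -0.41 to 0.47, or 0.753-fold to 1.39-fold (limma, adjusted p = 0.945). It was -0.16 without DIO replicate 3, 0.24 without DIO replicate 1 and -0.21 after cyclic loess (limma, unadjusted p = 0.294, 0.0537 and 0.0226), so its sign depended on these arrays and on the normalization.

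Gclc (ENSMUSG00000032350, chromosome 9, 77754535 to 77794489) and Gclm (ENSMUSG00000028124, chromosome 3, 122245487 to 122267215) encode the catalytic and the modifier subunit of glutamate-cysteine ligase, the rate-limiting enzyme of glutathione synthesis. Gclc read 8.25, 8.56, 8.68 and 8.58 in BMJ + DIO livers, against 9.36, 8.73 and 7.94 in DIO livers. The BMJ + DIO values again lay inside the DIO range, which spanned 1.42 log2 units for Gclc. Its mean was 8.52 ± 0.19 (SD, n = 4) in BMJ + DIO and 8.67 ± 0.71 (SD, n = 3) in DIO, a difference of -0.16 with an interval of -0.96 to 0.65 (limma, adjusted p = 0.816).

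Without DIO replicate 3, whose Gclc was the lowest of the 7, the difference in Gclc was -0.52 (limma, adjusted p = 0.858), and without DIO replicate 1 it was 0.19. After cyclic loess Gclc read 8.22, 8.49, 8.49 and 8.44 in BMJ + DIO livers, against 9.15, 8.81 and 8.51 in DIO livers. The groups then did not overlap, with DIO replicate 3 just above the highest treated liver, and the difference was -0.41 with an interval of -0.79 to -0.04 (limma, unadjusted p = 0.0356, adjusted p = 0.534).

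Gclm read 8.22, 8.24, 8.38 and 8.46 in BMJ + DIO livers, against 8.46, 8.30 and 7.76 in DIO livers. DIO replicate 3 was the low sample, and the highest treated liver equalled DIO replicate 1 to the second decimal. The difference was 0.15 with an interval of -0.28 to 0.58 (limma, adjusted p = 0.669), -0.05 without DIO replicate 3, 0.30 without DIO replicate 1 and -0.10 after cyclic loess. The 2 subunits had differences of opposite sign as deposited, neither of them past the test. Both were negative without DIO replicate 3 and after cyclic loess, and both were positive without DIO replicate 1.

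Gsr (ENSMUSG00000031584, chromosome 8, 33653238 to 33698162), glutathione reductase, returns oxidised glutathione to its reduced form. It read 6.58, 6.72, 6.72 and 6.72 in BMJ + DIO livers, against 7.04, 6.72 and 6.22 in DIO livers. The deposited value was identical in 3 treated livers and in DIO replicate 2, so 7 arrays gave 4 distinct values. The difference was 0.03 with an interval of -0.43 to 0.48 (limma, adjusted p = 0.960). It was -0.19 without DIO replicate 3 and 0.21 without DIO replicate 1. After cyclic loess, which breaks such repeats, Gsr read 6.55, 6.66, 6.55 and 6.60 in BMJ + DIO livers, against 6.86, 6.78 and 6.70 in DIO livers, without overlap and with a difference of -0.19 (limma, unadjusted p = 0.0206, adjusted p = 0.534). DIO replicate 2 and the 3 treated livers with its deposited value were set apart by the normalization alone.

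Slc7a11 (ENSMUSG00000027737, chromosome 3, 50364936 to 50499087) encodes the cystine importer of system xc-, which supplies cysteine for glutathione. Its deposited value was 1.80 in all 4 BMJ + DIO livers and 1.80 in all 3 DIO livers, a single value on 7 arrays. It lay below the level at which IDs entered the test, and no difference could be estimated from it.

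Txnrd1 (ENSMUSG00000020250, chromosome 10, 82833951 to 82897724) encodes the cytosolic thioredoxin reductase, a selenoprotein that uses NADPH. It read 6.70, 6.79, 6.87 and 6.95 in BMJ + DIO livers, against 6.96, 6.65 and 5.93 in DIO livers. Its difference of 0.31, with an interval of -0.28 to 0.91, was the largest of the 9 as deposited, at 1.24-fold (limma, adjusted p = 0.581). The size depended on DIO replicate 3: the difference was 0.02 without that liver and 0.54 without DIO replicate 1 (limma, unadjusted p = 0.858 and 0.0521). After cyclic loess it was 0.10.

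Srxn1 (ENSMUSG00000032802, chromosome 2, 152105524 to 152111376), sulfiredoxin, repairs overoxidised peroxiredoxins. It read 6.51, 6.43, 6.31 and 6.28 in BMJ + DIO livers, against 6.61, 6.59 and 6.19 in DIO livers. DIO replicates 1 and 2 lay above all treated livers and DIO replicate 3 below them. The difference was -0.08 with an interval of -0.38 to 0.22 (limma, adjusted p = 0.746), and it was negative in all 17 alternatives, between -0.35 and -0.01. Alternatives that changed only the filter or the variance model could not change this difference. Without DIO replicate 3 it was -0.22, and after cyclic loess -0.28, or 0.821-fold (limma, unadjusted p = 0.0333 and 0.0329, adjusted p = 0.858 and 0.534). Without DIO replicate 1 it was -0.0063 (limma, unadjusted p = 0.964). Cyclic loess moved DIO replicate 3 from 6.19, below all treated livers, to 6.64, above all of them.

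Nqo1 (ENSMUSG00000003849, chromosome 8, 107388225 to 107403205) encodes a quinone reductase that is widely used as a readout of NRF2. It read 3.63, 3.74, 3.95 and 3.75 in BMJ + DIO livers, against 4.25, 3.56 and 2.71 in DIO livers. The DIO livers spanned 1.54 log2 units, the widest range of the 10 genes, and enclosed the treated livers. The difference was 0.26 with an interval of -0.59 to 1.11, or 0.665-fold to 2.15-fold (limma, adjusted p = 0.714), -0.14 without DIO replicate 3 and 0.63 without DIO replicate 1 (limma, unadjusted p = 0.549 and 0.0530). Among the 11802 tested IDs with a mean between 3 and 5, the median deviation of DIO replicate 3 was 0.01 and that of DIO replicate 1 was 0.00, and the order of the DIO livers for Nqo1 was the same after cyclic loess, at 4.26, 3.55 and 2.64.

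Hmox1 (ENSMUSG00000005413, chromosome 8, 75093618 to 75100593), heme oxygenase 1, degrades heme and is also prominent in Kupffer cells, the macrophages of the liver. It read 5.27, 5.74, 5.75 and 5.97 in BMJ + DIO livers, against 6.10, 5.75 and 5.72 in DIO livers. BMJ + DIO replicate 1 was the lowest and DIO replicate 1 the highest. Unlike most of the other genes, Hmox1 varied more among BMJ + DIO livers (SD 0.29, n = 4) than among DIO livers (SD 0.21, n = 3). The difference was -0.17 with an interval of -0.63 to 0.28 (limma, adjusted p = 0.649), and it was negative in all 17 alternatives, between -0.34 and -0.04, with no unadjusted p under 0.05. Here too, changing only the filter or the variance model could not change the difference.

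Osgin1 (ENSMUSG00000074063, chromosome 8, 119425882 to 119446257) encodes oxidative stress induced growth inhibitor 1. It read 6.32, 6.85, 6.52 and 6.75 in BMJ + DIO livers, against 6.19, 6.54 and 6.46 in DIO livers. DIO replicate 1, the highest liver for 7 other genes, was the lowest for Osgin1. The difference was 0.21 with an interval of -0.17 to 0.59 (limma, adjusted p = 0.577), and it was 0.24 without DIO replicate 3 and 0.11 without DIO replicate 1. After cyclic loess it was -0.00032 on 7 arrays, 0.20 without DIO replicate 3 and -0.25 without DIO replicate 1.

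**Figure D2:**
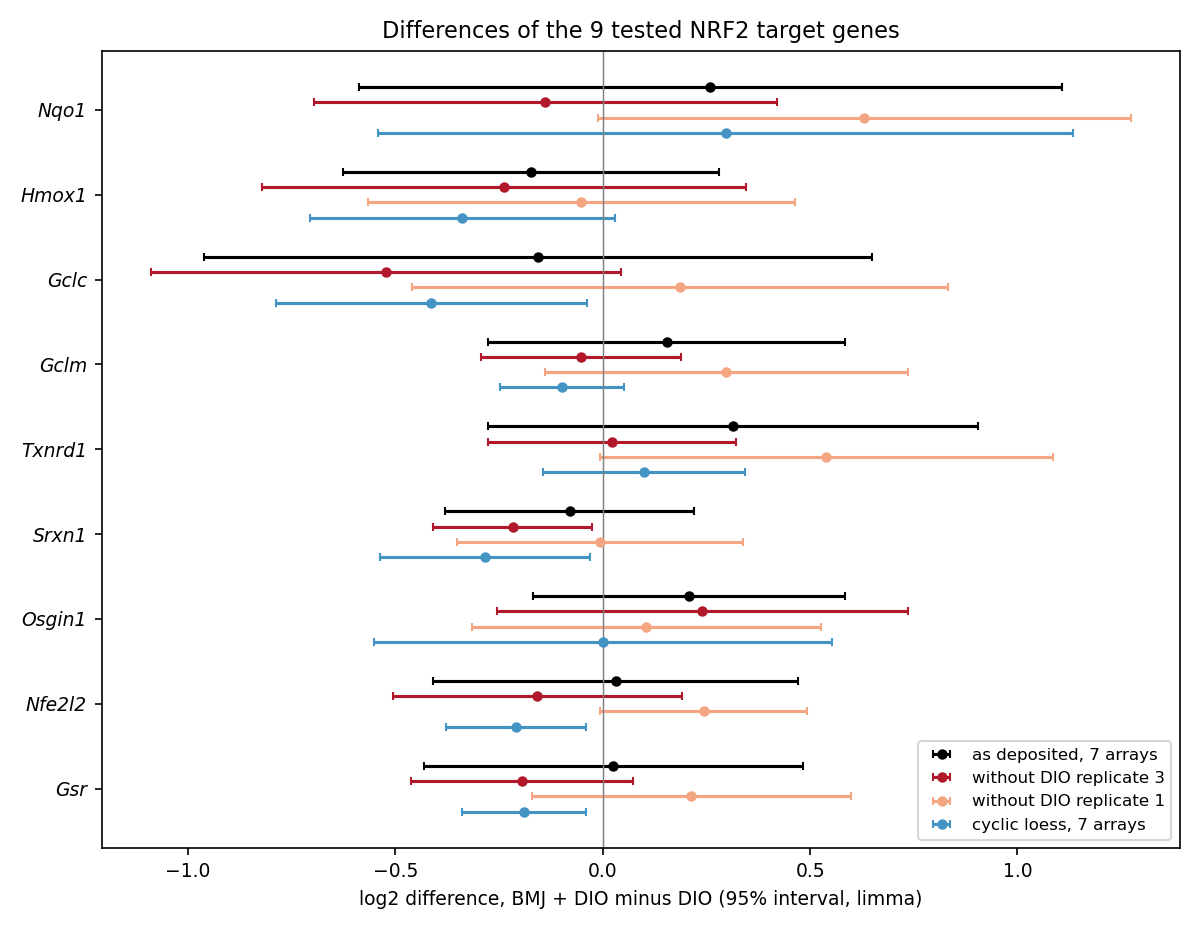
Log2 difference, BMJ + DIO minus DIO (x axis), of the 9 tested genes with its 95% interval from limma, on the deposited values of 7 arrays, without DIO replicate 3, without DIO replicate 1 and after cyclic loess. All 9 intervals on the deposited values include 0, and after cyclic loess those of Gclc, Srxn1, Nfe2l2 and Gsr lie below 0 before adjustment.

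By liver, most of the genes read high in DIO replicate 1 and low in DIO replicate 3. DIO replicate 1 was the highest of the 7 arrays for 7 of the 9 tested genes, against 21.4% of tested IDs, and DIO replicate 3 was the lowest for 7 of 9, against 42% of tested IDs. Both held at once for Nqo1, Gclc, Txnrd1, Srxn1, Nfe2l2 and Gsr, 6 of 9, against 15.5% of tested IDs. After cyclic loess the same was true of 1 of the 9 genes, Nqo1, and of 8.8% of IDs. The SD was larger in DIO than in BMJ + DIO for 7 of the 9 genes and for 72.4% of all tested IDs, so a wider spread among DIO livers was common to the table.

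**Figure D3:**
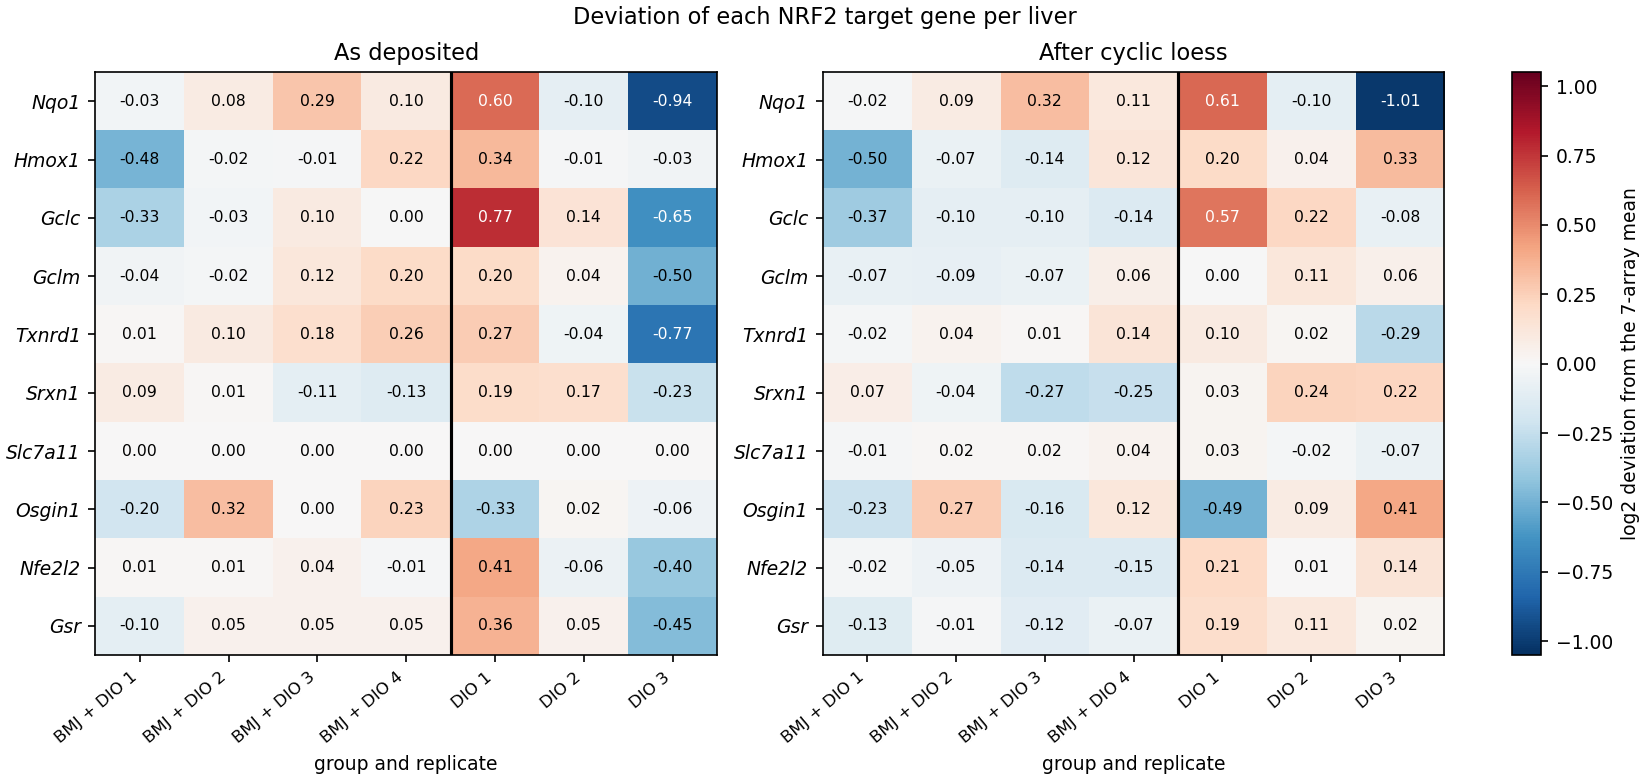
Deviation of each of the 10 genes from its own 7-array mean (colour and printed value, log2 units) in the 4 BMJ + DIO and 3 DIO livers, as deposited on the left and after cyclic loess on the right. DIO replicate 1 is above the mean for 8 of the 9 tested genes and DIO replicate 3 below it for all 9 as deposited. After cyclic loess, 7 genes in DIO replicate 1 and 6 in DIO replicate 3 are above their means.

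The mean deviation over the 9 tested genes gives 1 family level per liver, described here without a test. It was -0.12, 0.06, 0.07 and 0.10 in the BMJ + DIO livers, against 0.31, 0.02 and -0.45 in the DIO livers. By group it was 0.03 ± 0.10 (SD, n = 4) in BMJ + DIO and -0.04 ± 0.38 (SD, n = 3) in DIO, and the DIO livers lay on both sides of the treated ones. In DIO replicate 3 the family level was close to the medians of -0.39 and -0.51 of all IDs with means of 5 to 7 and of 7 or more. In DIO replicate 1 it was above their 0.14 and 0.19. The family level also includes Nqo1, at -0.94 in DIO replicate 3. Its mean lies in the band of 3 to 5, where the median of all IDs in that liver was 0.01. The part of the array-wide deviation in the values of the genes was not tested.

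After cyclic loess the family level was -0.14, 0.00, -0.07 and -0.01 in BMJ + DIO livers, against 0.16, 0.08 and -0.02 in DIO livers. The group values were -0.05 ± 0.07 (SD, n = 4) in BMJ + DIO and 0.07 ± 0.09 (SD, n = 3) in DIO. The mean was then lower in BMJ + DIO for 7 of the 9 genes and higher for 2, where 48.4% of all tested IDs were higher. The 7 include Osgin1, whose difference was only -0.00032. The median difference was -0.19 over the 9 genes, against -0.01 over all tested IDs. At an unadjusted p under 0.05 there were 4 of 9 genes, Gclc, Srxn1, Nfe2l2 and Gsr, all with a lower mean in BMJ + DIO, against 8.98% of tested IDs in either direction and 4.09% in that direction, and the groups did not overlap for Gclc, Nfe2l2 and Gsr, against 10.4% of IDs. Both counts include Gsr, for which livers of both groups with the same deposited value were set apart by the normalization alone. They also include Nfe2l2, for which DIO replicates 2 and 3 lay below all treated livers as deposited, at 7.54 and 7.20. After cyclic loess these 2 livers read 7.61 and 7.73, above the treated livers at 7.45 to 7.58. None of the 9 passed the adjusted threshold (limma, adjusted p from 0.534 to 0.999; 0.00499% of IDs passed).

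With cyclic loess and without DIO replicate 3, the 3 genes under an unadjusted p of 0.05 were Gclc, Nfe2l2 and Gsr, at -0.57, -0.20 and -0.23 (limma, unadjusted p = 0.00555, 0.0430 and 0.00624, adjusted p = 0.629, 0.730 and 0.635), against 6.82% of IDs. With cyclic loess and without DIO replicate 1 they were Srxn1 at -0.35 and Nqo1 at 0.69 (limma, unadjusted p = 0.0235 and 0.0389, adjusted p = 0.141 and 0.169), against 26.8% of IDs. Gclc, Nfe2l2 and Gsr had differences of -0.24, -0.16 and -0.15 in that fit.

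**Figure D4:**
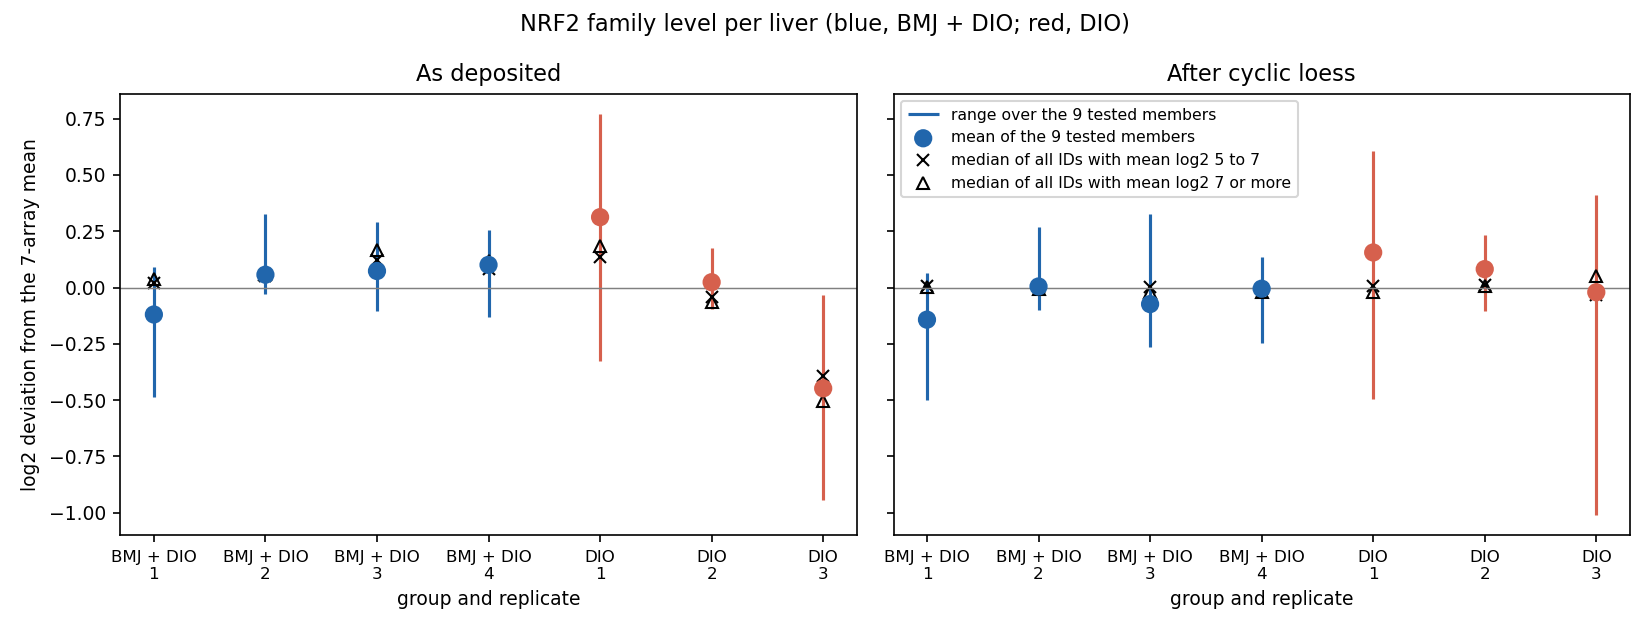
Mean deviation of the 9 tested genes from their 7-array means (large points, log2 units) with the range over the genes (vertical lines) in each liver, as deposited on the left and after cyclic loess on the right, beside the median of all tested IDs in 2 brightness bands (crosses and triangles). DIO replicate 3 lies at -0.45 as deposited and at -0.02 after cyclic loess, where its lowest gene, Nqo1, stays near -1.01.

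The genes also differed in how closely they followed each other over the 7 livers, given as a description since the points share the array-wide deviations above. Of the 36 pairs among the 9 tested genes, 13 had a Pearson correlation above 0.8 on the deposited values and 2 after cyclic loess. Gclm and Txnrd1 were closest to each other (0.978), Gclc and Gsr were closest to each other (0.960), Nqo1 was closest to Gsr (0.956) and Nfe2l2 to Nqo1 (0.949). Srxn1 was closest to Nfe2l2 (0.691), Hmox1 to Gclc (0.654) and Osgin1 to Hmox1 (0.0955), and Slc7a11, with 1 value on all arrays, has no correlation.

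Which gene was closest depended on the arrays and the normalization. Gclc and Gsr, which act in the synthesis and the recycling of glutathione, were each other's closest gene also after cyclic loess (0.922) and without DIO replicate 3 (0.984, 6 arrays). Gsr has the same deposited value on 4 of these 6 arrays, so the 0.984 rests largely on DIO replicate 1 and BMJ + DIO replicate 1. After cyclic loess, Gsr differs among those 4 arrays only through the normalization. Without DIO replicates 1 and 3 the pair was at 0.926, but Gsr then has the same value on 4 of the 5 arrays, so this figure records only that Gclc was also lowest in BMJ + DIO replicate 1. Gclm and Txnrd1 were each other's closest gene without DIO replicate 3 (0.857) and without DIO replicates 1 and 3 (0.799), but not after cyclic loess. Txnrd1 was then closest to Nqo1, at 0.886 on 7 arrays, and the same pair had 0.394 without DIO replicate 3. The 0.394 used values normalized over all 7 arrays, whereas the cyclic loess fit without that liver normalized the remaining 6 arrays. Hmox1 was closest to Gclm without DIO replicate 3 (0.847), and Osgin1 had a highest correlation, with Hmox1, of 0.336 after cyclic loess and 0.778 without DIO replicates 1 and 3.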

How the data were processed

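RNA of 7 mouse livers was fragmented and biotinylated with an Affymetrix kit and read on arrays, per the labels' protocols. The deposited log2 values were made by the authors with Affymetrix Power Tools and RMA (background correction, normalization across arrays and a summary per ID), with GRCm38 (mm10), per the submitters' processing notes; versions, array type and probe grouping were not given in the notes. Values ran from 0.00374 to 12.5. Groups come from the sample titles, which call the mice biological replicates. The number of arrays limits the precision.

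The 10 symbols were paired with Ensembl IDs when the genes were chosen. The reference gene table lists 0 Ensembl IDs, so other IDs have no names here, and the wider NRF2 and cell type marker lists, written in symbols, were not tested. Genes and lists were chosen with earlier results of these data known. All 10 genes are named, and each of the 9 tested is set beside the other tested gene with the highest Pearson correlation over the arrays.

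All 20055 IDs with a mean above the lowest 40% were fitted with limma 3.58.1 in R 4.3.3 (lmFit, eBayes, group as sole term, two-sided, Benjamini-Hochberg over all IDs tested, 5 residual and 1.05 prior degrees of freedom) and tested on simulated data first. Alternatives were other filters, normalizations and variance models, the replicate number as a block and leaving out each array. Cyclic loess used limma's fast method, which leaves each ID's mean over the arrays nearly unchanged. Joining it with leaving out DIO replicate 1 or 3 was added after seeing the data. Replicate numbers 1 to 3 occur in both groups, but nothing ties equal numbers to a shared cage or day, so the groups were not paired.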

Additional observations from a re-analysis of the deposited data

Results flagged for a closer look

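One value stood far from the rest of its group by Dixon's test at the 95% level, which was applied to the 4 BMJ + DIO livers for each gene whose values vary. Gsr read 6.58 (log2 units) in BMJ + DIO replicate 1 and 6.72 in each of the other 3 BMJ + DIO livers, so the gap to the nearest value made up the whole range of the group. The 3 other values are identical as deposited, so any different value in the remaining liver gives this result. After cyclic loess the 4 livers read 6.55, 6.66, 6.55 and 6.60.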

How the results depend on the processing

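In all 17 alternatives 0 of the tested genes passed the adjusted p of 0.05, with adjusted p from 0.141 (Srxn1, cyclic loess without DIO replicate 1) to 1. At an unadjusted p under 0.05 the count of 0 (1285 of all 20055 IDs) became 3 with quantile normalization (1769 IDs) and 4 with cyclic loess (1801 IDs). With cyclic loess it was 3 without DIO replicate 3 (1368 IDs) and 2 without DIO replicate 1 (5382 IDs). Dropping 1 array as deposited gave 0 to 1, against 550 to 5823 of all IDs. The 1 was without DIO replicate 3 (652 IDs). The 6 genes with a higher mean in BMJ + DIO (56.3% of IDs) became 3 with quantile normalization (49.2%) and 2 with cyclic loess (48.4%). With cyclic loess they became 1 without DIO replicate 3 (49.3%) and 2 without DIO replicate 1 (49.0%). When 1 array was dropped as deposited, the count ran between 2, without DIO replicate 3 (47.4%), and 7, without DIO replicate 1 (56.9%). The median difference of 0.03 became -0.16 and 0.21 in those fits. Hmox1 and Srxn1 kept a negative sign in every alternative, although the other filters and variance models leave each difference unchanged and cannot turn a sign. The sign turned for the others as follows: with quantile normalization for Gclm (-0.054), Nfe2l2 (-0.19) and Gsr (-0.17); with cyclic loess for Gclm (-0.10), Osgin1 (-0.00032), Nfe2l2 (-0.21) and Gsr (-0.19); on dropping 1 array, between without DIO replicate 3 and without DIO replicate 1, for Nqo1 (-0.14 to 0.63), Gclc (-0.52 to 0.19), Gclm (-0.054 to 0.30), Nfe2l2 (-0.16 to 0.24) and Gsr (-0.19 to 0.21); with cyclic loess without DIO replicate 3 for Nqo1 (-0.12), Gclm (-0.10), Txnrd1 (-0.018), Nfe2l2 (-0.20) and Gsr (-0.23); and with cyclic loess without DIO replicate 1 for Gclm (-0.12), Osgin1 (-0.25), Nfe2l2 (-0.16) and Gsr (-0.15). The cause was not tested. With the 60% filter Nqo1 was not tested. With the replicate block 0 of 9 genes passed and the median difference was 0.04. BMJ + DIO replicate 4 has no same-numbered DIO mouse, so the block gave the same differences as leaving that array out. Same-numbered mice did not deviate together (correlations of -0.355, -0.09 and -0.296 over the tested IDs), so equal numbers were not taken as pairs. Signal over background was not examined here.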
